A study of Mus musculus with 12 samples.

Results

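Imprinted genes are expressed mainly from the chromosome of 1 parent, and 10 of them were followed here in hippocampal neurons that project to the nucleus accumbens. The 10 genes are Peg10, Sgce, Peg3, Ndn, Magel2, Nnat, Plagl1, Impact, Dlk1 and Snrpn, found by symbol among 37310 genes, each under 1 identifier. The list was chosen by the counts of Peg10, which differed between FosB KO and WT in the TRAP libraries, so all values of that contrast are given as a description and nothing about the list is drawn from them. Dlk1 is also among the genes that the study lists as different in the same libraries.

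The mice were C57BL/6, carried the Cre-dependent GFP-L10a gene (Rosa26eGFP/L10a), and were WT or FosB fl/fl. Both genotypes received the retrograde vector HSV-Cre in NAc, and ventral hippocampus (vHPC) was punched 3 weeks later. TRAP pulls down ribosomes with the GFP tag and so collects mRNA under translation in the cells that took up Cre, here vHPC neurons with axons in NAc. Input is RNA of the same tissue before the pulldown. Since HSV-Cre was the sole source of Cre, FosB could recombine only in transduced cells. Input holds RNA of all cells of the punch, and the share of transduced cells in it was not measured. There were 3 pools per genotype, numbered 1, 2 and 3 in WT and 2, 3 and 4 in KO, of 3 mice each by the labels and 3 to 4 by the methods, and each pool gave 1 TRAP and 1 input library. The p-values of KO against WT measure the spread between these pools. Those of TRAP against input, and of its difference between genotypes, treat the TRAP and input library of a pool as separate samples. There the pool entered only as an alternative.

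All 10 genes are known in the mouse as expressed from the paternal copy, and such genes often lie in clusters whose copies carry different DNA methylation at a control region. Many of them act in growth, in placenta and in the developing and adult brain. In neurons several are strongly expressed in hypothalamus. Alleles were not separated in these counts, so the values are the sum of both copies. In bulk samples fewer cells of a type and less RNA per cell cannot be told apart.

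The libraries held 3416030 to 5614089 counts on genes, and 3 counts, taken as the floor of detection, stood at 0.534 to 0.878 CPM before scaling. CPM sets a gene's counts against the library total after TMM scaling. Fosb was 45.2, 32.6 and 40.2 CPM in WT TRAP 1, 2 and 3 and 29.1, 18.8 and 21.3 in KO TRAP 2, 3 and 4, with no overlap, and it was 22.2 to 30.1 in WT input and 14.9 to 17.0 in KO input, so it was lower in KO in both fractions. These counts cover all exons of Fosb, including any outside the floxed part. The markers of astrocytes, oligodendrocytes and microglia were lower in TRAP than in input for all 12, 12 and 10 genes listed, and 11 of 14 GABA neuron markers were lower and 1, Cck, was higher by 0.74 on the log2 scale, while 5 of 10 glutamate neuron markers were higher, where 20.1% of 13214 genes tested were called higher and 22.7% lower. Of 8 endothelial and 8 choroid plexus and ependymal markers, 3 and 4 could be tested, of which 2 and 1 were lower. Among the libraries KO TRAP 2 stood apart in neuronal markers: its GABA markers summed to 958 CPM against 481 to 754 in the other TRAP libraries, and its amygdala and hypothalamus markers to 1383 CPM against 967 to 1238. WT input 1 had counts on 15678 genes, against 17255 to 18090 in the other input libraries, and KO input 4 stood apart in choroid plexus and ependymal markers, at 266 CPM against 7.77 to 78.1.

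Peg10, which encodes gag- and pol-like proteins that derive from a retrotransposon, lies at chr6:4697306-4710514 of mm9 on the plus strand (ENSMUSG00000092035.1). It was measured from 146 to 459 counts per library. Peg10 was 45.0, 41.9 and 45.6 CPM in WT TRAP and 103, 112 and 102 CPM in KO TRAP. In input it was 45.1, 33.4 and 47.7 CPM in WT and 72.8, 67.0 and 64.7 CPM in KO. In both fractions every KO pool was above every WT pool, and in TRAP the 3 values of each genotype lay close together. The mean was 44.2 ± 1.98 CPM (SD, n = 3) in WT TRAP and 106 ± 5.73 in KO TRAP, a log2 difference of 1.27 (SE 0.13), or 2.42-fold with a 95% interval of 1.99 to 2.93. Without KO TRAP 2 the log2 difference was 1.30. Of the 75-base stretches of its exons, 1.93% had another place in the genome at up to 2 mismatches, and reads with several alignments were set aside by the counting.

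Sgce, the gene of epsilon-sarcoglycan, lies next to Peg10 in the opposite direction at chr6:4624350-4697204 (ENSMUSG00000004631.9), with 101 bases between them, and both share an imprinting control region. It was 5.52, 5.99 and 7.20 CPM in WT TRAP and 7.48, 6.85 and 8.0 in KO TRAP, so the genotypes overlapped. In input it was 4.05, 5.03 and 5.47 CPM in WT and 6.60, 9.77 and 6.34 in KO, with every KO pool above every WT pool. The gene rested on 14 to 44 counts per library. Its log2 difference between KO and WT was 0.28 (95% interval -0.55 to 1.10) in TRAP and 0.63 (-0.18 to 1.44) in input.

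Apart from Sgce, 3 genes within 500 kb of Peg10 passed the filter on low counts in TRAP or input. Casd1, which encodes a sialic acid O-acetyltransferase, had a KO against WT log2 difference of 0.29 (SE 0.22) in TRAP and 0.12 (SE 0.23) in input. Ppp1r9a, the gene of the actin-binding protein neurabin, had 0.08 (SE 0.11) and 0.01 (SE 0.10). Col1a2, a collagen gene, had 0 to 1 counts in WT TRAP and 1 to 8 in KO TRAP and was tested in input only, with 6 to 18 counts in WT input and 23 to 46 in KO input, a log2 difference of 1.50 (SE 0.52) and an adjusted p of 1.00 in edgeR's quasi-likelihood test. The 4 other annotated genes in that window had too few counts to be tested.

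Ndn, Magel2 and Snrpn belong to the imprinted region of chromosome 7 that corresponds to the Prader-Willi region in humans. Ndn, which encodes the MAGE family protein necdin, known to restrain the cell cycle in neurons, is a gene of 1 exon at chr7:69493163-69494814 (ENSMUSG00000033585.4). Ndn was 236, 285 and 224 CPM in WT TRAP and 278, 304 and 255 in KO TRAP. In input it was 127, 125 and 125 CPM in WT and 181, 188 and 146 in KO. The lowest TRAP library was above the highest input library, so the fractions were apart in every pool. Magel2, another MAGE family gene that acts with ubiquitin ligases in protein recycling, lies at chr7:69521865-69526526 (ENSMUSG00000056972.5) and was near the floor, with 8 to 36 counts per library. It was 2.49, 4.55 and 5.60 CPM in WT TRAP, 8.87, 5.87 and 6.06 in KO TRAP, 2.31, 2.06 and 3.72 in WT input and 8.48, 3.55 and 3.50 in KO input. Pool KO 2 was the highest for Magel2 in both fractions. Without pool KO 2 the KO against WT log2 difference of Magel2 went from 0.75 to 0.54 in TRAP and from 0.92 to 0.37 in input.

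Snrpn encodes a protein of the neuronal spliceosome, SmN, and spans chr7:67127388-67285105 on the minus strand (ENSMUSG00000000948.9). It was the most abundant of the 10 in CPM, with 1163, 1432 and 1332 CPM in WT TRAP and 1214, 1246 and 1111 in KO TRAP. In input it was 1103, 923 and 989 CPM in WT and 919, 1054 and 853 in KO. The genotypes overlapped in both fractions. Of its exon stretches 22.4% had another place in the genome, and since reads with several alignments were set aside by the counting, its level may be understated.

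Peg3 encodes a zinc finger protein of the brain, known from studies of maternal behavior, at chr7:6656603-6683132 (ENSMUSG00000002265.8). It varied little, with 782, 680 and 692 CPM in WT TRAP, 853, 805 and 761 in KO TRAP, 703, 618 and 624 in WT input and 690, 734 and 682 in KO input. The genotypes overlapped in each fraction. Peg3, Snrpn, Ndn and Magel2 share chromosome 7 with Fosb, at 13.2, 47.2, 49.6 and 49.6 Mb from it, while the other 6 genes do not.

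Plagl1, also called Zac1, encodes a zinc finger transcription factor that binds other imprinted genes, and lies at chr10:12810497-12851500 (ENSMUSG00000019817.11). Its pools differed widely. It was 122, 103 and 148 CPM in WT TRAP, 82.3, 192 and 155 in KO TRAP, 103, 67.4 and 82.1 in WT input and 58.2, 91.0 and 90.8 in KO input. Pool KO 2 was the lowest of all 6 pools for Plagl1 in both fractions.

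Dlk1 encodes a membrane protein related to Notch ligands, made by cells that are not yet differentiated and by some neuroendocrine cells, at chr12:110691033-110701546 (ENSMUSG00000040856.11). It was 35.6, 38.8 and 30.6 CPM in WT TRAP and 53.2, 44.8 and 56.5 in KO TRAP, with no overlap. In input it was 49.4, 22.8 and 25.8 CPM in WT and 38.6, 40.4 and 39.1 in KO, where WT input 1 was above all KO pools. The log2 difference was 0.57 (SE 0.17) in TRAP and 0.28 (SE 0.24) in input. Without pool WT 1, whose input library stood apart, the difference in input was 0.70, and without pool WT 2 it was 0.07.

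Nnat, which encodes the small membrane protein neuronatin of the endoplasmic reticulum, lies inside Blcap at chr2:157385814-157388258 (ENSMUSG00000067786.9). It was 514, 784 and 623 CPM in WT TRAP, 527, 686 and 661 in KO TRAP, 550, 438 and 472 in WT input and 458, 535 and 414 in KO input. Impact, whose protein inhibits the activation of the stress kinase GCN2, lies at chr18:13130761-13151457 (ENSMUSG00000024423.5). It was 396, 361 and 383 CPM in WT TRAP, 404, 363 and 337 in KO TRAP, 289, 346 and 298 in WT input and 371, 317 and 299 in KO input. For both genes WT and KO overlapped in TRAP and in input.

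**Figure D1:**
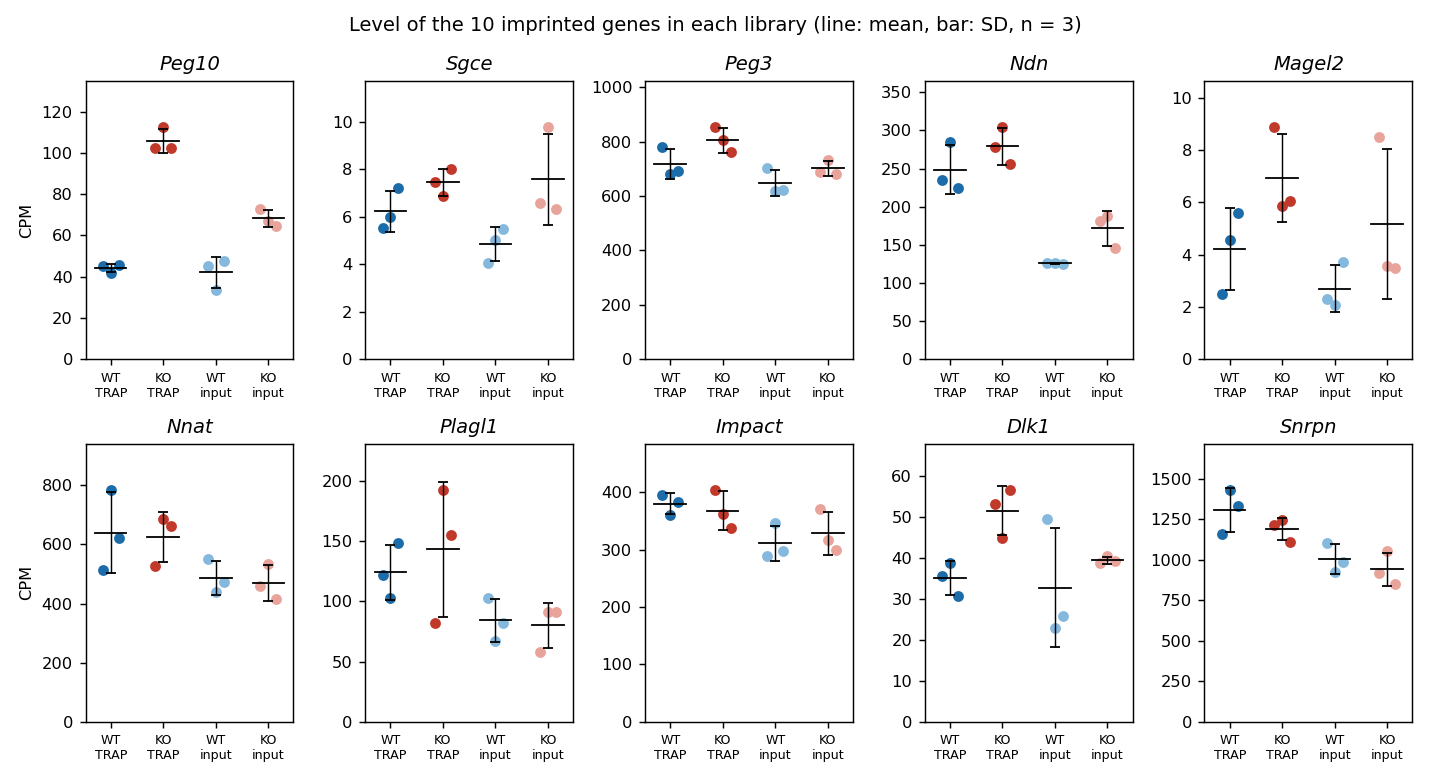
CPM of each of the 10 genes (vertical axes from 0, 1 scale per gene) in the 12 libraries, grouped by genotype and fraction, TRAP first, with pools in order of number. Points are libraries, lines means and bars SD (n = 3). Peg10 is at 41.9 to 45.6 CPM in WT TRAP and at 102 to 112 in KO TRAP, and Ndn is higher in all TRAP than in all input libraries.

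Per kb of exon, the scale on which genes can be compared with each other, the order in WT TRAP was Snrpn (596 CPM per kb), Nnat (350.2), Ndn (150.2), Impact (111), Peg3 (53.9), Plagl1 (17.1), Peg10 (6.63), Dlk1 (6.19), Sgce (2.02) and Magel2 (0.904). Peg10 and Dlk1 were the only neighbors in this order whose libraries overlapped. In KO TRAP the order was the same, with Peg10 at 15.9 CPM per kb, and there the libraries of Peg10 overlapped those of Plagl1 and not those of Dlk1. The order in WT input differed in that Impact (90.6 CPM per kb) stood above Ndn (76.0), without overlap, and in KO input Ndn (104) and Impact (95.8) overlapped.

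The question of which of these genes are enriched on the ribosomes of vHPC-NAc neurons was tested against input, a contrast that did not choose the list, although for Peg10 it uses the WT and KO TRAP libraries of the choice. Over both genotypes 7 of 10 genes were higher in TRAP and none was lower, where 20.1% of 13214 genes tested were called higher and 22.7% lower. Without Peg10, whose TRAP libraries of both genotypes entered the choice, the count was 6 of 9. Of 11 amygdala and hypothalamus markers tested, 6 were higher in TRAP as well, Hap1 by 0.58, Resp18 by 0.66 and Ecel1 by 1.32 on the log2 scale among them. Zic1, at -3.14, and Tac1 were the 2 lower ones, and the median of the 11 was 0.53. The summed level of the amygdala and hypothalamus markers was 967 to 1383 CPM in TRAP and 610 to 880 in input. The part of these markers in the enrichment of the imprinted genes was not tested. Ndn rose most, by 0.83 on the log2 scale (SE 0.08, adjusted p = 2.40e-09, edgeR quasi-likelihood test as for all that follow), and was higher in 6 of 6 pools with log2 ratios from 0.61 to 1.18. Plagl1 rose by 0.70 (SE 0.22, adjusted p = 0.0236) and was higher in 6 of 6 pools. Nnat rose by 0.40 (SE 0.10, adjusted p = 0.00218) in 5 of 6 pools, with WT pool 1 at -0.10. Snrpn rose by 0.35 (SE 0.06, adjusted p = 5.91e-05) in 6 of 6 pools.

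Impact and Peg3 had smaller enrichments of 0.22 (SE 0.07, adjusted p = 0.0153) and 0.17 (SE 0.06, adjusted p = 0.0288), each in 6 of 6 pools. In all, 6 of the 10 genes were higher in TRAP in every pool, Magel2 among them, where 18.6% of the genes tested were. The 3 genes that did not pass were Magel2 at 0.50 (SE 0.35), Dlk1 at 0.25 (SE 0.15) and Sgce at 0.15 (SE 0.26). Leaving out 1 pool at a time, Ndn, Nnat and Snrpn were called each time. Plagl1 was lost without KO 4 and without WT 3, Peg10 without KO 3 and without KO 4, Peg3 without KO 2 and without WT 3, and Impact without WT 1 and without WT 3, while Dlk1 was gained without WT 1.

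Within single genotypes, of 3 pools each, fewer genes passed, and Peg10 is left aside here because its TRAP libraries entered the choice. In WT the enriched genes were Ndn at 0.97 (SE 0.12, adjusted p = 1.22e-05), Plagl1 at 0.56 (SE 0.17, adjusted p = 0.0247), Nnat at 0.38 (SE 0.13, adjusted p = 0.0457) and Snrpn at 0.37 (SE 0.10, adjusted p = 0.0122). These are 4 of 9, against 11.8% of all genes called higher. With the pool as a block Nnat was not called and the count was 3. Without WT 3 only Ndn was called, and without WT 2 Ndn and Impact were. In KO the enriched genes were Ndn at 0.69 (SE 0.11, adjusted p = 6.64e-05), Nnat at 0.41 (SE 0.11, adjusted p = 0.00867) and Snrpn at 0.33 (SE 0.09, adjusted p = 0.00992). These are 3 of 9, against 13.2% of all genes called higher. With the pool as a block Plagl1 joined them, for 4 of 9, and without KO 4 only Ndn of the 9 was called. Of these 9 genes, Ndn alone was called in each genotype under all alternatives run.

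The ratio of Peg10 to input is given as a description, since it holds the TRAP libraries of both genotypes on which it was chosen. Within a pool, TRAP over input gave log2 ratios for Peg10 of -0.0021, 0.33 and -0.07 in WT pools 1, 2 and 3, and 0.49, 0.74 and 0.66 in KO pools 2, 3 and 4. The fitted enrichment was 0.06 (SE 0.18) in WT and 0.63 (SE 0.12) in KO. All KO pools were above all WT pools. The difference of the 2 enrichments was 0.58 (SE 0.21) and was not called. No gene of the 10 was called for such a difference, where 0.00757% of 13214 genes were. The count of 0 was the same in DESeq2, and 1 of 10 had an unadjusted p under 0.05 in edgeR, which was Peg10 and is no independent support.

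**Figure D2:**
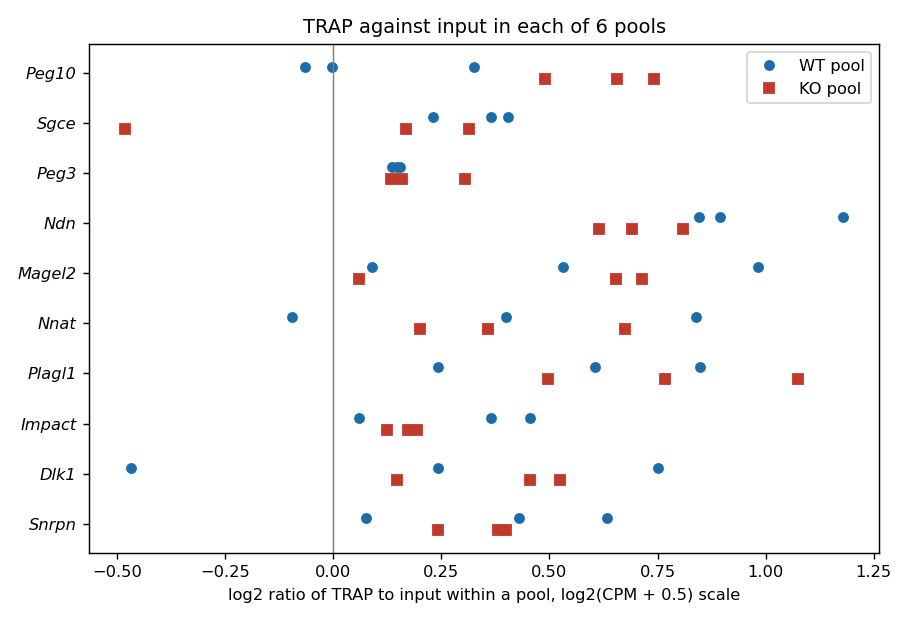
Log2 ratio of TRAP to input within each of the 6 pools (horizontal axis, log2(CPM + 0.5) scale) for the 10 genes, with circles for WT and squares for KO pools. All 6 pools of Ndn lie between 0.61 and 1.18, and for Peg10 the KO pools lie at 0.49 to 0.74 and the WT pools at -0.07 to 0.33.

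The promoter windows of the genes enriched in both genotypes are shown to give the sequence context of Ndn, Nnat and Snrpn, and that of Magel2 for its match to the motif that FosB-JunD and other AP-1 dimers bind. RefSeq windows of 300 bases (250 before to 50 after the start, GRCm38.p6) matched 7 of the 10 genes, with 10 windows. Peg10, Sgce and Impact had no window, so their promoters were not searched for any motif. The letters TGANTCA, the AP-1 motif, occurred in 1 window (Magel2), against 7.81% of 32851 windows of the genome, and TGACGTCA, the CRE motif bound by CREB, in 1 (Peg3), against 1.79%. The palindrome CGCATGCG, which is the core that NRF1 recognizes, was searched after the windows had been read. It was present in the windows of Ndn and Nnat and in the 4 windows of Snrpn, which are starts of 1 gene and not independent, and 1.87% of all windows hold it. Since the letters were picked from these windows, nothing is drawn from that count. All 3 motifs read the same on both strands, and none overlaps another in these windows. Of the 4 windows of Snrpn the one with most CpG is shown. Capitals mark the motif.
Ndn, chr7:62348027-62348326, plus strand: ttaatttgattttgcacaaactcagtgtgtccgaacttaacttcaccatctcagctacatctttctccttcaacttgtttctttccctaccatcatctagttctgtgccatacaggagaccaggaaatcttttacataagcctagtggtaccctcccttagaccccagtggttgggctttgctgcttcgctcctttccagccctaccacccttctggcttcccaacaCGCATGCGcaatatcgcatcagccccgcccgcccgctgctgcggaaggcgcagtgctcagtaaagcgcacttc
Nnat, chr2:157559828-157560127, plus strand: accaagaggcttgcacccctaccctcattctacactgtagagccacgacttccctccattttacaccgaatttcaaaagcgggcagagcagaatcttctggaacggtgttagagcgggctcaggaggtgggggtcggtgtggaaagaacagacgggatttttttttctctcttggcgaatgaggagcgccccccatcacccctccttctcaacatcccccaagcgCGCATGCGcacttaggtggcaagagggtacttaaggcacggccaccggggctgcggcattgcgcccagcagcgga
Snrpn, chr7:60005150-60005449, minus strand: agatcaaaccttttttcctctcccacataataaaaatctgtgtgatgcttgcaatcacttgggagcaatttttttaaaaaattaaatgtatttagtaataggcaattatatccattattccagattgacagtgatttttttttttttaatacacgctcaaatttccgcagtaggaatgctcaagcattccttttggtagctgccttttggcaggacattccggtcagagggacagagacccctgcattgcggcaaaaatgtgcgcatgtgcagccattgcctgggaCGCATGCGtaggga
Magel2, chr7:62376729-62377028, plus strand: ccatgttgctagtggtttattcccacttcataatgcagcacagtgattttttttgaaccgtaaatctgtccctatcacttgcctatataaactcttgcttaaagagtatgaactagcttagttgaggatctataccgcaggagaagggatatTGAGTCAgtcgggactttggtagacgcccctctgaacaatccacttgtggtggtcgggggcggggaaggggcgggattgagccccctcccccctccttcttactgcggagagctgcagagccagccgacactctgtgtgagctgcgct

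Nnat and Snrpn also moved together across libraries. After the mean of each group was removed, the Pearson correlation of their log2 CPM was 0.78 over 12 libraries, with Ndn and Snrpn at 0.69 and Ndn and Nnat at 0.61. Plagl1 and Impact went opposite ways at -0.69. The 12 libraries share pools and scaling, so these values are descriptions. Of all 45 pairs of the 10 genes, Nnat with Snrpn was the highest and Plagl1 with Impact the lowest.

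The genotypes were also compared in input. These libraries did not enter the choice, but they come from the same 6 pools of mice, so for Peg10 they are not independent of it. Of the 10 genes 7 had positive and 3 negative log2 differences of KO against WT, with a median of 0.19, or 0.11 without Peg10. None passed at an adjusted p of 0.05, where 0.0312% of 12816 genes tested did. DESeq2 called 0 of 10 as well, while edgeR called Peg10 without the filter on low counts (adjusted p = 0.0433) and Ndn with the replicate number as a block (adjusted p = 0.0453), and 2 genes of 10 had an unadjusted p under 0.05 in edgeR, where 371 of the 12816 had. Those 2 were Peg10 at 0.69 (SE 0.16, adjusted p = 0.499), or 1.62-fold with a 95% interval of 1.27 to 2.05, and Ndn at 0.45 (SE 0.12, adjusted p = 0.920), or 1.36-fold with an interval of 1.14 to 1.63. Ndn averaged 125.5 ± 1.02 CPM in WT input and 172 ± 22.9 CPM in KO input (SD, n = 3), and the WT pools were much closer to each other than the KO pools. The difference of Peg10 in input was 0.55 to 0.80 when 1 pool was left out, with KO above WT each time. Peg10, Ndn and Sgce were the genes with every KO input library above every WT input library, where 4.36% of all genes were so. The 8 endothelial markers summed to 10.1, 23.3 and 11.8 CPM in WT input 1, 2 and 3 and to 29.7, 24.2 and 19.7 in KO input 2, 3 and 4, with the groups overlapping, and the 3 tested had positive log2 differences of 0.42 to 1.29, none called. The 8 choroid plexus and ependymal markers summed to 10.7 to 78.1 CPM in WT input and to 13.9, 7.77 and 266 in KO input 2, 3 and 4. Of 4 tested 2 were positive, Ttr at 1.48 (SE 2.15) and Kl at 1.16 with an adjusted p of 1.00 in edgeR. Foxj1 at -0.58 and Ccdc153 at -0.41 were negative. Without pool KO 4 the differences were 0.73 for Peg10, 0.55 for Ndn and 0.74 for Sgce. The part of these markers in the input differences was not tested.

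In the TRAP libraries the 10 genes include Peg10 by the choice itself. The share of all 11727 genes tested that edgeR called higher there was 0.0341%, and none of the other 9 genes was among them. The other genes had log2 differences from -0.12 (Snrpn) to 0.75 (Magel2), and the median of the 10 was 0.20, or 0.19 without Peg10, where that of all genes was -0.0020. Peg10, Magel2 and Dlk1 had every KO library above every WT library, where 5.22% of all genes had. Since Peg10 was chosen on this contrast and Dlk1 is on the study's list from the same libraries, nothing is drawn from this count. The intervals of Peg3 (0.0034 to 0.36), Ndn (-0.03 to 0.40), Impact (-0.23 to 0.16) and Snrpn (-0.29 to 0.05) were narrow, and that of Plagl1 (-0.72 to 1.15) was wide.

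**Figure D3:**
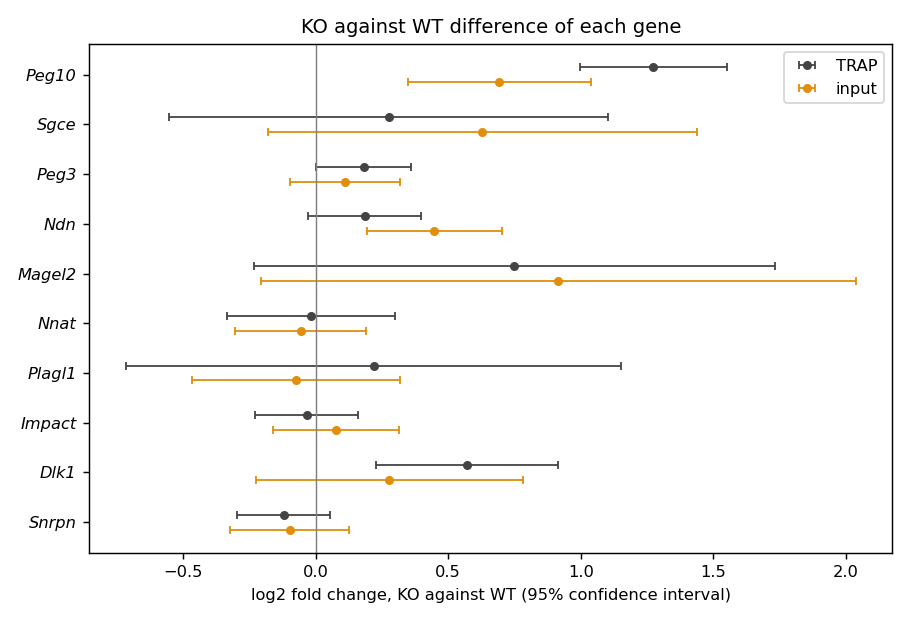
Log2 fold change of KO against WT for the 10 genes in TRAP (dark) and input (orange), with 95% confidence intervals from the edgeR fit of 3 against 3 libraries. Peg10 is at 1.27 in TRAP and 0.69 in input, the intervals of 7 genes in TRAP include 0 (not those of Peg10, Dlk1 and Peg3), and those of all genes but Peg10 and Ndn in input do.

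Markers of amygdala and hypothalamus, regions where several imprinted genes are strongly expressed, were compared in the same libraries. Of 16 listed, 9 could be tested, and all 9 had positive log2 differences with a median of 0.35. None was called by edgeR or DESeq2, and 3 (all higher) had an unadjusted p under 0.05 in edgeR, where 2.68% of all genes were higher at that level. These were Arhgap36, Hap1 and Gpr101. Arhgap36 and Gpr101 are also among the genes that the study lists as different in these libraries, so nothing is drawn from these counts. The summed level of the 16 markers was 967 to 1101 CPM in WT TRAP and 1150 to 1383 in KO TRAP, with no overlap. In WT and KO input it was 610 to 821 and 777 to 880 CPM. Most of this sum was Hap1, a gene of a huntingtin-associated protein, at 738 ± 42.7 CPM in WT TRAP and 882 ± 53.5 in KO TRAP (SD, n = 3). Nkx2-1 had no count in WT TRAP, and Sim1 had none in KO TRAP or in WT input. Without pool KO 2 the median was 0.07 with 7 of 9 positive, and the difference of Peg10 was then 1.30. The part of these markers in the genotype difference of Peg10, Magel2 and Dlk1 was not tested.

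The other imprinted genes are given as counts. Of 55 listed, 51 were found and 36 tested in TRAP, of which 30 had positive differences of KO against WT. None was called by edgeR or DESeq2, and 6 (all higher) had an unadjusted p under 0.05 in edgeR, where 314 of all 11727 genes were higher at that level. Their median log2 difference was 0.21, where 49.5% of all genes were positive. Summed over the 51 genes the level was 3633, 3730 and 3692 CPM in WT TRAP and 4046, 4001 and 3912 CPM in KO TRAP, with no overlap. Leaving out any pool gave 28 to 31 positive genes of 36 to 38 tested, and without KO 2 it was 29 of 36. In input 25 of 39 were positive with a median of 0.05, where that of all genes was -2.45e-05. There 0 were called by edgeR or DESeq2, and 2 had an unadjusted p under 0.05 in edgeR, 1 higher and 1 lower. Of all 12816 genes tested in input, 0.0312% were called by edgeR and 2.89% had an unadjusted p under 0.05. The amygdala and hypothalamus list shares Calcr with this list.

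Against input, 11 of 40 other imprinted genes tested were higher in TRAP and 7 lower over both genotypes (27.5% and 17.5%), near the 20.1% and 22.7% of all genes. The enriched genes with the smallest p, not the largest folds, were Rasgrf1, a Ras exchange factor of neurons, at 0.54 (SE 0.07, adjusted p = 1.09e-07), Cdkn1c, a cell cycle inhibitor, at 1.29 (SE 0.20, adjusted p = 7.72e-06), and Grb10, an adaptor that dampens insulin signaling, at 0.54 (SE 0.09, adjusted p = 1.93e-05). The depleted genes with the smallest p were Rian at -1.53 (SE 0.09, adjusted p = 4.04e-14), Ppp1r9a at -1.01 (SE 0.07, adjusted p = 3.23e-12) and Meg3 at -4.59 (SE 0.20, adjusted p = 2.60e-08). Rian and Meg3 are long noncoding RNAs made from the maternal copy in the region of Dlk1. Meg3 averaged 1636 ± 426 CPM in WT input and 68.6 ± 11.7 in WT TRAP (SD, n = 3), far apart, while its coding neighbor Dlk1 stood at 32.7 ± 14.6 and 35.0 ± 4.10 CPM. Meg3 and Rian overlap small RNA genes, and Meg3 a gene on the other strand, so their counts are uncertain.

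Peg10 belongs to a family of genes derived from Sushi-ichi retrotransposons, of which 11 were listed. Between KO and WT TRAP, none of the 7 tested beside Peg10 was called by edgeR or DESeq2, where edgeR called 0.0341% of all genes higher. An unadjusted p under 0.05 in edgeR was found for 1 (Cxx1a, named after its value was seen, lower in KO at -0.76), where 6.05% of all genes had one. Of the 7, 5 had positive log2 differences, and the median of the 7 was 0.026. In input 8 of 8 tested beside Peg10 were positive, with a median of 0.22, where that of all genes was -2.45e-05. They ran from 0.03 (SE 0.13) for Ldoc1l to 0.60 (SE 0.67) for Ldoc1. None was called by edgeR or DESeq2, and 0 had an unadjusted p under 0.05 in edgeR. Of all 12816 genes tested in input, edgeR called 0.0312%, and 2.89% had an unadjusted p under 0.05. Over both genotypes 2 of the 9 tested beside Peg10 were higher in TRAP and 1 was lower, near the 20.1% and 22.7% of all genes. Ldoc1l at 0.53 (SE 0.08, adjusted p = 5.50e-06) and Cxx1c at 0.53 (SE 0.11, adjusted p = 0.000329) were the higher ones. Rtl1, a family member needed in the placenta, was lower at -2.82 (SE 0.33, adjusted p = 5.14e-08). It is also on the list of other imprinted genes. For Cxx1c 22.9% of the exon stretches had another place, and Rtl1 overlaps microRNA genes on the other strand.

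**Figure D4:**
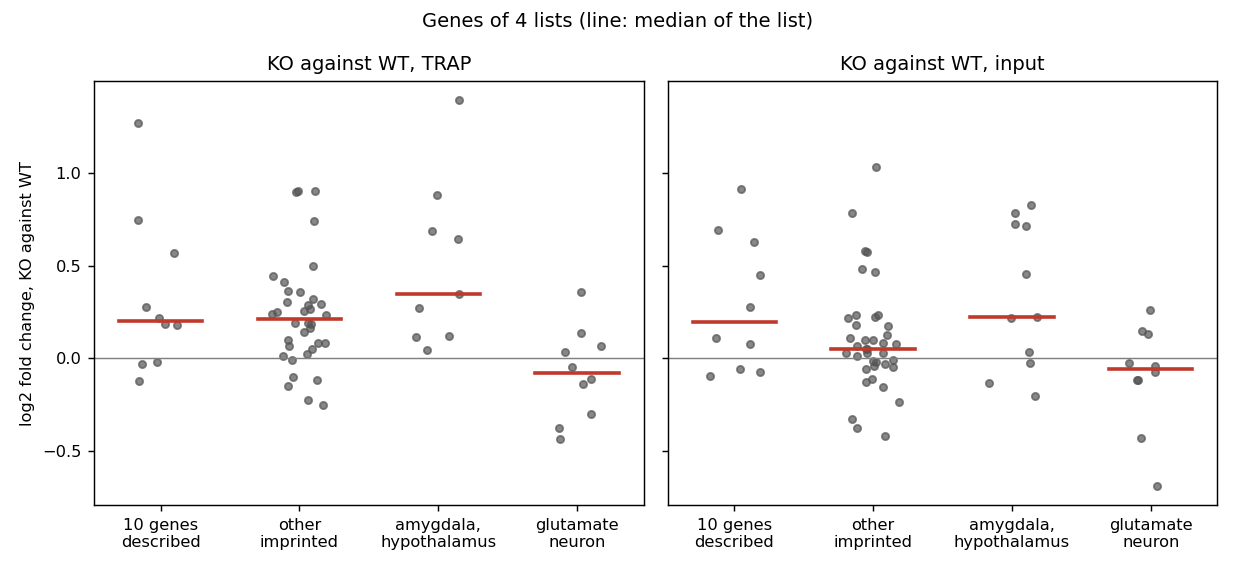
Log2 fold change of KO against WT (vertical axis) for the genes of 4 lists in TRAP (left) and input (right), each point a gene, with lines at the median. The other imprinted genes have a median of 0.21 in TRAP and 0.05 in input, and the glutamate neuron markers of -0.08 and -0.06.

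The genes whose level followed Peg10 most closely over the 12 libraries, by Pearson correlation of log2 CPM among 13214 genes, were Gm11223 (0.93), Txndc15 (0.91), Peli3 (0.87), Tm9sf4 (0.86) and Gm10036 (0.84). Since the libraries fall in 4 groups, these values hold the genotype difference of each gene. Txndc15, which encodes a thioredoxin domain protein, averaged 22.7 ± 2.33 CPM in WT TRAP and 30.9 ± 1.58 in KO TRAP. Gm11223 and Gm10036 are uncertain, as 78.4% and 100% of their exon stretches had another place in the genome.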

How the data were processed

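The authors deposited raw counts per gene for each of the 12 libraries, after TopHat had placed the reads on mm9 and HTSeq-count had assigned them to Gencode vM1 genes. Versions and the strand setting are not given in the sources used here. Reads on no gene (20.6% to 27.1%) and ambiguous reads (2.11% to 2.56%) stayed out of library sizes. Libraries without the word input in their label were taken as TRAP.

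The tests were run with edgeR 4.0.16 under R 4.3.3 (filterByExpr by group, TMM, robust dispersion, quasi-likelihood test), adjusted by Benjamini-Hochberg over all genes tested and called at an adjusted p under 0.05. All 10 genes passed the filter in every comparison. The spread was estimated from the libraries of each comparison, and from all 12 for both genotypes and the interaction. CPM values are TMM-scaled over the 12 libraries, and ratios within a pool use a pseudocount of 0.5 CPM. The procedure was also tested on simulated data with known changes. TRAP and input of 1 pool come from the same mice, and their deviations from group means correlated at 0.0579 to 0.106. Exon stretches of 75 bases, taken every 25 bases, were aligned with minimap2 2.31.

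The genes and lists were chosen with earlier results of these data known. Named beside the 10 genes were Fosb, up to 3 called genes per direction of a described list, tested neighbors of Peg10 within 500 kb and the 5 genes most correlated with it. Alternatives were RLE, total counts, no filter beyond 1 count, a mean of at least 10 counts, DESeq2 1.42.0, the pool number as a block and leaving out each pool.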

Additional observations from a re-analysis of the deposited data

How the results depend on the processing

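Of the counts of called genes, 60 of 66 alternatives stayed within 1.5 times the value reported. In input, KO against WT called 1 gene of 10 with no filter (Peg10, adjusted p = 0.0433) and 1 with the replicate number as a block (Ndn, adjusted p = 0.0453), against 0. Pool numbers 2 and 3 stand for different mice in the 2 genotypes (correlations of deviations -0.0693 to 0.00298), so that block joins unrelated pools. For TRAP against input it joins 1 pool, and the counts were 3 in WT, 5 in KO and 7 over both. Leaving out 1 pool gave 1 to 4 called genes in WT, 2 to 5 in KO and 4 to 7 over both. Small differences changed sign. KO against WT in TRAP, Nnat was 0.013 with total counts only and Impact 0.059 with the block, and leaving out 1 pool gave -0.15 to 0.15 for Nnat, -0.11 to 0.023 for Impact and -0.040 to 0.50 for Plagl1. In input the block gave 0.12 for Nnat and 0.043 for Snrpn, and leaving out 1 pool gave -0.16 to 0.047 for Nnat, -0.21 to 0.11 for Plagl1 and -0.016 to 0.16 for Impact. For TRAP against input, leaving out 1 pool gave -0.054 to 0.14 for Peg10 and -0.19 to 0.50 for Dlk1 in WT and -0.20 to 0.25 for Sgce in KO, where total counts only gave 0.027 for Sgce. For the interaction, Snrpn was 0.023 with total counts only, and leaving out 1 pool gave -0.20 to 0.10 for Snrpn, -0.39 to 0.15 for Magel2, -0.23 to 0.27 for Nnat and -0.14 to 0.57 for Dlk1. The cause of these changes was not tested. Of 660 single-gene values under alternatives, 604 kept direction and call, 20 lost and 9 gained a call, and 27 changed sign. Depth limits Magel2 and Sgce most, at 8 to 36 and 14 to 44 counts per library.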
